A study of Homo sapiens with 7 samples.

Results

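PIPOX lies on chromosome 17 and held 2 of the 5782 sites at which binding of the fusion transcription factor PAX3-FOXO1 was counted, and 1 more site lay before the gene within 250 kb of it. These 3 sites were found by position, as those with a centre inside PIPOX (hg19, chr17:27369918-27384243, 14326 bases) or within 250 kb of either end. The locus itself was chosen on measured counts: the site nearer the end of the gene was already known to be among the largest falls after treatment. Its values are therefore a description with no test. The other 2 sites were taken by their position near it and were tested. As the locus was reached through a site chosen on its fall, that choice may also favour falls at these 2. The site chosen on its fall is thus 1 of 2 inside the gene.

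The cells were Rh4, a long-established line of rhabdomyosarcoma with the PAX3-FOXO1 fusion. Its fusion was fused to an FKBP degron and tagged with HA in every library, controls included, and CUT&RUN with an antibody against HA released and sequenced the DNA under it. All 6 libraries analysed here were crosslinked: 2 from cells given DMSO, 2 from cells given 500 nM dTAG47 for 2 h and 2 from cells given it for 4 h. dTAG47 links the degron to an E3 ubiquitin ligase, so that the tagged protein is degraded. The labels name 1 cell line with the degron and do not say whether it is 1 clone, whether an untagged copy of the fusion was left or whether libraries came from separate cultures, so the p-values rest on a spread between libraries that may be technical.

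PAX3-FOXO1 joins the DNA-binding part of PAX3, a paired domain and a homeodomain, to the activation domain of FOXO1. It is known to bind mostly at enhancers away from gene starts, introns included, and to drive a muscle lineage program that is held back from full differentiation. PIPOX encodes the peroxisomal sarcosine and pipecolic acid oxidase, an enzyme that oxidises sarcosine and L-pipecolic acid, the latter an intermediate of lysine breakdown, and gives off hydrogen peroxide. It is known as one of the genes expressed strongly in rhabdomyosarcoma that carries the fusion. Expression was not measured in these libraries.

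The 3 sites each ended 400 bases after their start. The first lay before the gene, at chr17:27295528-27295928, with its centre 74.19 kb from the start of PIPOX. The second lay inside the gene at chr17:27375698-27376098, with its centre 5.98 kb after the start, at 41.7% of the gene's length. The third, on which the locus was chosen, lay at chr17:27378220-27378620, with its centre 8.502 kb after the start, at 59.3% of the length. Their centres were 2522 bases apart, with 2122 bases between the end of one and the start of the next. No site lay at the start of PIPOX or after its end within the window. RefSeq (GRCh38.p14) places SEZ6 as the protein-coding gene before PIPOX and MYO18A as the one after it. Which exon or intron holds each site, and which gene lies at the first site, was not determined here, since no hg19 annotation was used.

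The promoter is shown because both sites inside the gene lay kilobases away from it while it holds letters that the 2 DNA-binding domains of PAX3 are known to read. It is given as the 250 bases before the RefSeq start of PIPOX (GRCh38.p14, chr17:29042891-29043140, plus strand), with matches to the motifs searched in capitals.

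PIPOX promoter: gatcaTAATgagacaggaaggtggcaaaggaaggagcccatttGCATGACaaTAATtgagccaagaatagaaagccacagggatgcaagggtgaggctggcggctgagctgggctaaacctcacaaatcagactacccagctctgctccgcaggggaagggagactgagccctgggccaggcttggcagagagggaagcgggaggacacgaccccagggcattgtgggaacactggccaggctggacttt

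Both strands were searched for GTCACGC and GTCATGC (core letters of a paired-domain site), ATTA (the homeodomain core) and its palindromes, TAAT and ATTA with 2 or 3 bases between them, and CAGCTG and CAGGTG (E-boxes, read by MYOD1 and other myogenic factors). GTCATGC was found once, as its reverse complement GCATGAC, starting 207 bases before the gene. It is held by 1.43% of the 35116 promoters in the RefSeq table over the same length. ATTA was found at 2 places, as TAAT starting 245 and 198 bases before the gene, and 47.4% of promoters hold it. The second TAAT began 2 bases after the end of GCATGAC. The other 5 motifs had no match in these 250 bases. RefSeq gives PIPOX 14076 bases in GRCh38 and the hg19 interval used for the sites has 14326, so the 2 starts may not be the same base. The matches describe letters only, and the base sequences of the 3 bound sites are not shown because no hg19 genome was used here.

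Each library placed between 110440 and 380057 reads in the sites and 12 to 48 at its median site, so counts at single sites carry wide counting error. The 4 h columns A and B agreed within sampling noise (the chi-square of their counts at 5575 sites was 1.01 times its degrees of freedom, p = 0.24) and count as 1 library in n and in means, while the tests kept them as separate columns unless stated. For the DMSO pair it was 2.09 times and for the 2 h pair 1.96 times. Columns are named by treatment and letter, and the DMSO columns do not state crosslinking: they were read as the crosslinked samples, the DMSO group that has 2. Intervals below are exact at 95% and cover counting error only.

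In mean raw count, the PIPOX site nearer the end of the gene lost most of its reads within 2 h of dTAG47. It was close to empty at 4 h. DMSO libraries A and B gave 35 and 93 reads there. The counts were 16 (A) and 2 (B) after 2 h of dTAG47, then 2 (A) and 6 (B) after 4 h. Every treated library lay below both DMSO libraries, and the groups did not overlap. In counts such separation held for 49.8% of all sites at 2 h and 79% at 4 h. The mean count was 64 ± 41.0 (SD, n = 2) with DMSO, 9 ± 9.90 (SD, n = 2) at 2 h and 4 at 4 h (n = 1). Of the DMSO mean count, 14.1% was left at 2 h and 6.25% at 4 h. Raw counts also carry the library totals, which ran from 380057 in DMSO B to 110440 in 2 h B. A loss common to all sites and a difference in depth cannot be told apart in them. The fitted raw log2 change was −2.81 (SE 0.762) at 2 h and −3.96 (SE 0.840) at 4 h, a 7.03-fold and a 15.5-fold fall, against a median over all tested sites of −0.93 and −1.08.

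Totals in sites differed between the libraries, so the same site is also given as a share of its library. Per 100000 reads in sites it held 15.5 (interval 10.8 to 21.5) in DMSO A and 24.5 (19.8 to 30.0) in DMSO B. After 2 h it was 7.01 (4.01 to 11.4) in A and 1.81 (0.219 to 6.54) in B, and after 4 h 1.32 (0.160 to 4.77) in A and 3.83 (1.404 to 8.33) in B. The share was lower in every treated library than in either DMSO library, with the 2 h library A the highest of the treated ones. The interval of 2 h A overlapped that of DMSO A. Such separation in shares held for 32.4% of all sites at 2 h and 34.4% at 4 h. The mean share was 19.98 ± 6.36 (SD, n = 2) with DMSO, 4.41 ± 3.68 (SD, n = 2) at 2 h and 2.57 at 4 h (n = 1). This was a 4.53-fold and a 7.76-fold difference from DMSO, with 22.1% of the DMSO mean share left at 2 h and 12.9% at 4 h. The values of 2 h B and 4 h A rest on 2 reads each, under the floor of 3 reads set for the analysis. The folds and percentages are therefore loose. Relative to the typical site (TMM scale, where the median change of all sites is near 0) the log2 change was −1.87 (SE 0.349) at 2 h and −2.85 (SE 0.431) at 4 h. These standard errors are from edgeR and may be too small. They were larger with DESeq2 (0.628 and 0.721, changes of −1.94 and −2.84) and with limma-voom (0.505 and 0.659, changes of −1.87 and −2.83).

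The libraries of a group differed from each other at this site. The DMSO B to A ratio of its share was 1.58, against a median of 1.02 over 5618 sites with a mean of at least 10 reads in the pair. The 2 h B to A ratio was 0.258, against 0.919 over 5017 sites. Between the 4 h columns, with 2 and 6 reads, it was 2.90, against 1.01 over 4781 sites. Single libraries therefore set part of the size of the fall. Leaving out 2 h A gave a log2 change at 2 h of −4.92 in raw counts and −3.31 relative, while leaving out 2 h B gave −1.99 and DMSO B −1.94 in raw counts. At 4 h leaving out DMSO B gave a raw change of −3.09, and leaving out 4 h B gave −4.92 raw and −3.80 relative. It was below 0 in all 60 alternative fits, which the choice of the site on this fall largely fixes.

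**Figure D1:**
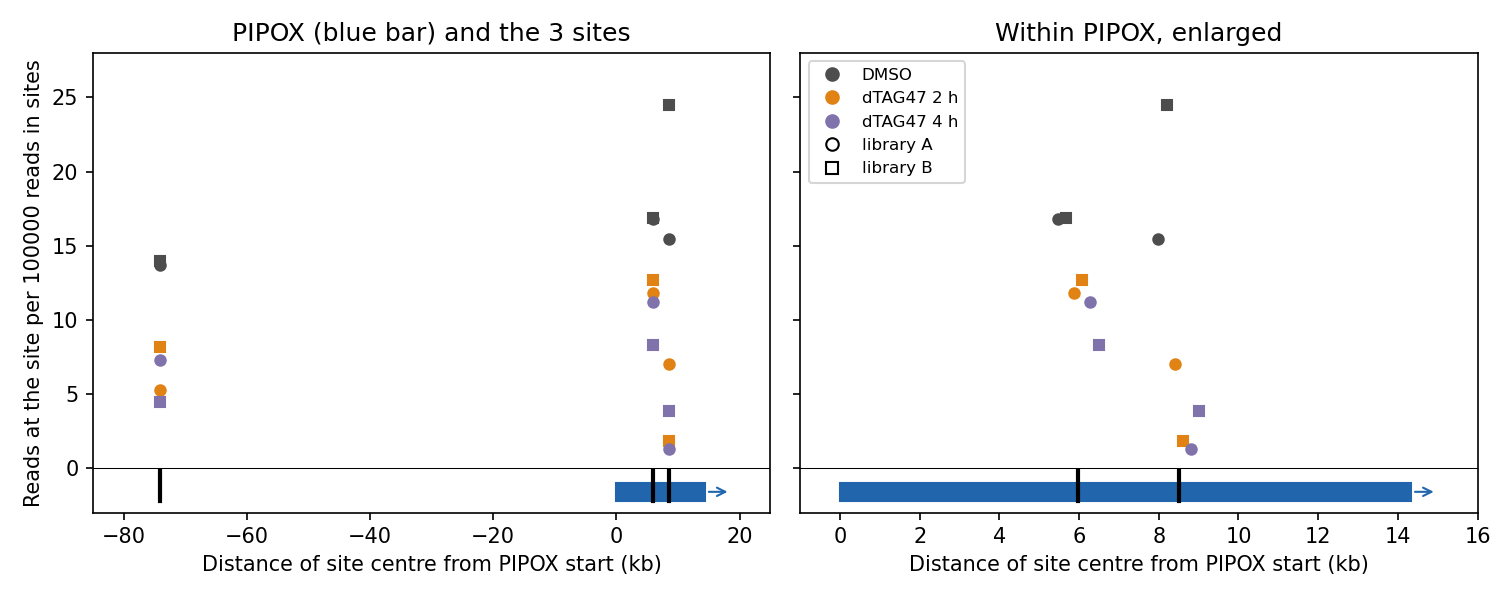
Reads per 100000 reads in sites (vertical axis) at the 3 sites, by distance of the site's centre from the start of PIPOX in kb (horizontal axis), with the whole locus on the left and the gene enlarged on the right, where points are spread sideways around each site's centre. The blue bar is PIPOX with its direction, black ticks are the true site centres, circles are library A and squares library B, and the site at 8.502 kb runs from 24.5 in DMSO B down to 1.32 in the 4 h column A.

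The PIPOX site nearer the start, 2522 bases away, had a like DMSO level and kept more of its reads. DMSO A and B gave 38 and 64 reads, dTAG47 for 2 h left 27 (A) and 14 (B), and 4 h left 17 (A) and 13 (B). Its treated counts were below both DMSO counts, as at 49.8% of all sites at 2 h and 79% at 4 h, yet none was under 13. Per 100000 reads it held 16.8 in each DMSO library, then 11.8 (A) and 12.7 (B) after 2 h, then 11.2 (A) and 8.29 (B) after 4 h. The mean share with DMSO was 16.8 ± 0.0215 (SD, n = 2), and 72.8% of it was left at 2 h and 58.0% at 4 h. The raw log2 change was −1.31 (SE 0.732) at 2 h and −1.76 (SE 0.751) at 4 h, and neither passed the threshold (edgeR adjusted p = 0.296 and 0.12). The relative change was −0.37 (SE 0.257) at 2 h and −0.66 (SE 0.280) at 4 h, and neither passed (edgeR adjusted p = 0.456 and 0.126). A raw call at 4 h was gained in a fit of DMSO and 4 h alone (edgeR adjusted p = 0.0305) and on leaving out 2 h A (0.0299) or 2 h B (0.0275), with the change still −1.76.

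The site before PIPOX gave 31 and 53 reads in DMSO A and B, of which dTAG47 left 12 (A) and 9 (B) after 2 h, then 11 (A) and 7 (B) after 4 h. All 4 treated counts were under 13, and both DMSO counts were over 30. Treated counts below both DMSO counts were also found at 49.8% of all sites at 2 h and 79% at 4 h. Its share per 100000 reads was 13.7 and 13.9 in the controls, then 5.26 (A) and 8.15 (B) after 2 h, then 7.27 (A) and 4.46 (B) after 4 h. Of the mean DMSO share, 48.5% was left at 2 h and 42.4% at 4 h. The relative log2 change was −1.05 (SE 0.331) at 2 h and −1.11 (SE 0.348) at 4 h, and both passed the threshold by little (edgeR adjusted p = 0.0498 and 0.0323). With DESeq2 neither passed (DESeq2 adjusted p = 0.899 and 0.546), and its standard errors were larger (0.569 and 0.581). With limma-voom the change at 2 h passed (limma-voom adjusted p = 0.0438) and that at 4 h did not (limma-voom adjusted p = 0.0766). In raw counts the change was −1.99 (SE 0.696) at 2 h, which did not pass (edgeR adjusted p = 0.114), and −2.21 (SE 0.708) at 4 h, which did (edgeR adjusted p = 0.0398). That raw call at 4 h was kept by both other tools (DESeq2 adjusted p = 0.0317, limma-voom adjusted p = 0.0240).

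Of the 2 tested neighbours, edgeR thus called 1 as a relative fall at each time and 1 as a raw fall at 4 h, always the site before the gene. The choice of the locus on a fall may favour such calls. Over all 5575 tested sites 4.07% were called as relative falls at 2 h and 6.73% at 4 h, and 1.04% and 6.19% as raw falls at 2 h and 4 h. These calls, though not the direction of the change, depended on single libraries and, on the relative scale, on the tool. The relative call at 4 h was lost without DMSO A, DMSO B, 4 h A or 4 h B (edgeR adjusted p = 0.0516, 0.142, 0.0562 and 0.318). The log2 change itself was −1.12, −1.11, −1.50 and −0.79 in these fits, against −1.11 with all libraries, so that leaving out 4 h B was what made it smaller. The raw call at 4 h was lost in the same 4 fits (0.050003, 0.793, 0.676 and 0.622), with changes of −2.54, −1.77, −2.56 and −1.92 against −2.21. The relative call at 2 h was lost without DMSO A, DMSO B or 2 h A (0.0750, 0.220 and 0.636). There the change was −1.05 without either DMSO library, as with all libraries, and −0.57 without 2 h A. A raw call at 2 h was gained without 2 h A (0.0291). With the 4 h columns as 1 library the relative calls were kept (0.0439 at 2 h and 0.0343 at 4 h) and the raw call at 4 h was lost (0.622).

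Separation of the treated from the DMSO libraries was common among all sites. All 3 sites had both treated libraries below both DMSO libraries at each time, in counts and in shares. Over the 5782 sites this held for 49.8% in counts and 32.4% in shares at 2 h, and for 79% in counts and 34.4% in shares at 4 h.

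**Figure D2:**
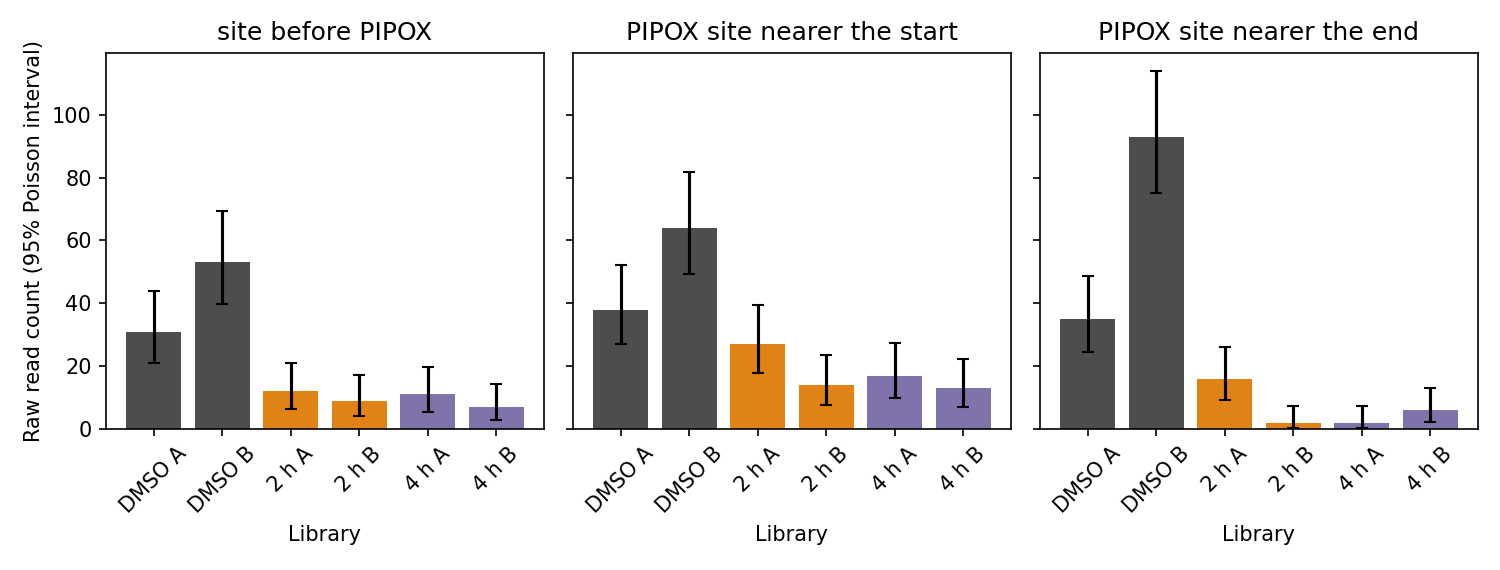
Raw read count (vertical axis) in each of the 6 libraries (horizontal axis) at the site before PIPOX, the PIPOX site nearer the start and the PIPOX site nearer the end, with bars from 0 and 95% Poisson intervals. At the site nearer the end the bars go from 93 reads in DMSO B to 2 in 2 h B and 4 h A, while the site nearer the start keeps 13 reads or more.

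How the reads of the locus divided between its sites does not depend on scaling between libraries. Summed over the 3 sites, the controls A and B gave 104 and 210 reads, the libraries after 2 h gave 55 and 25, and those after 4 h gave 30 and 26. The site nearer the end took 33.7% (interval 24.7 to 43.6) of these in DMSO A and 44.3% (37.5 to 51.3) in DMSO B. It took 29.1% (17.6 to 42.9) in 2 h A and 8% (0.984 to 26.0) in 2 h B. In the 4 h columns it took 6.67% (0.818 to 22.1) and 23.1% (8.97 to 43.6). Its portion was lower in each treated library than in either DMSO library, but the interval of 2 h A overlapped those of both controls. The choice of this site on its fall favours such a lower portion. Pooled over the libraries of a group it was 40.8% with DMSO, 22.5% at 2 h and 14.3% at 4 h.

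Inside the gene alone, the site nearer the end gave 0.921 and 1.45 reads for each read at the site nearer the start in DMSO A and B. After 2 h that ratio was 0.593 (A) and 0.143 (B), and after 4 h it was 0.118 (A) and 0.462 (B). With DMSO the 2 sites were thus near equal or the later one was higher, and in all 4 treated columns the earlier one was higher. As the later site was chosen on its fall, this is a description and no separate support for that fall. The reads of the earlier site per read at the site before the gene were 1.23 and 1.21 in the controls, 2.25 (A) and 1.56 (B) after 2 h, then 1.55 (A) and 1.86 (B) after 4 h.

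**Figure D3:**
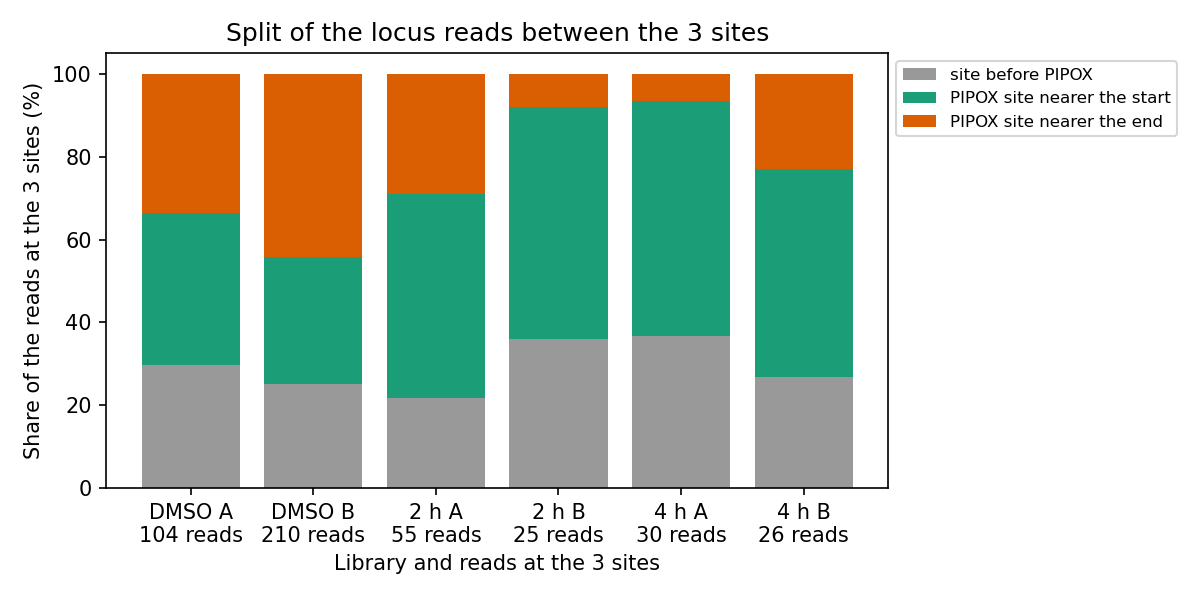
Share in percent of the reads at the 3 sites (vertical axis) that fell on each site, in each library (horizontal axis, with the number of reads divided). The portion of the PIPOX site nearer the end is 33.7% and 44.3% in the DMSO libraries and between 6.67% and 29.1% in the treated ones.

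With DMSO all 3 sites of the locus stood above the median site in mean count. The site nearer the end was 22.8% of the way down the list, the site nearer the start 32.6% and the site before the gene 43.4%. By mean DMSO count the site nearer the end ranked 1319 of 5782 (64 reads, against a median of 38), the site nearer the start 1887 (51 reads) and the site before the gene 2507 (42 reads). On chromosome 17 they ranked 30, 46 and 54 of 157. By share of the library, the site nearer the end ranked 2004 in DMSO A and 1064 in DMSO B, then 4462 (A) and 5618 (B) after 2 h, then 5688 (A) and 5304 (B) after 4 h. The site nearer the start kept ranks between 1757 and 3889 over the 6 libraries. The site before the gene went from 2429 and 2541 with DMSO to between 3779 and 5155 after treatment.

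By size of the fall, largest first, the PIPOX site nearer the gene's end stood near the top of the list, which is the value it was chosen on. Its relative fall ranked 25 of 5575 at 2 h and 3 at 4 h, and its raw fall 24 and 3. On chromosome 17 it ranked 1 of 148 tested sites at both times on both scales. Of the 1337 sites with at least its 128 DMSO reads in total, 5, this one included, held no more than its 18 reads at 2 h, and 1, the site itself, held no more than its 8 reads at 4 h. The median of those sites was 91 reads at 2 h and 80 at 4 h. The relative fall of the site before PIPOX ranked 202 at 2 h and 283 at 4 h, and that of the site nearer the start 1211 and 733. The 3 sites, whose centres span 82.7 kb, thus had falls from among the largest in the table to 21.7% of the way down the list at 2 h and 13.1% at 4 h.

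**Figure D4:**
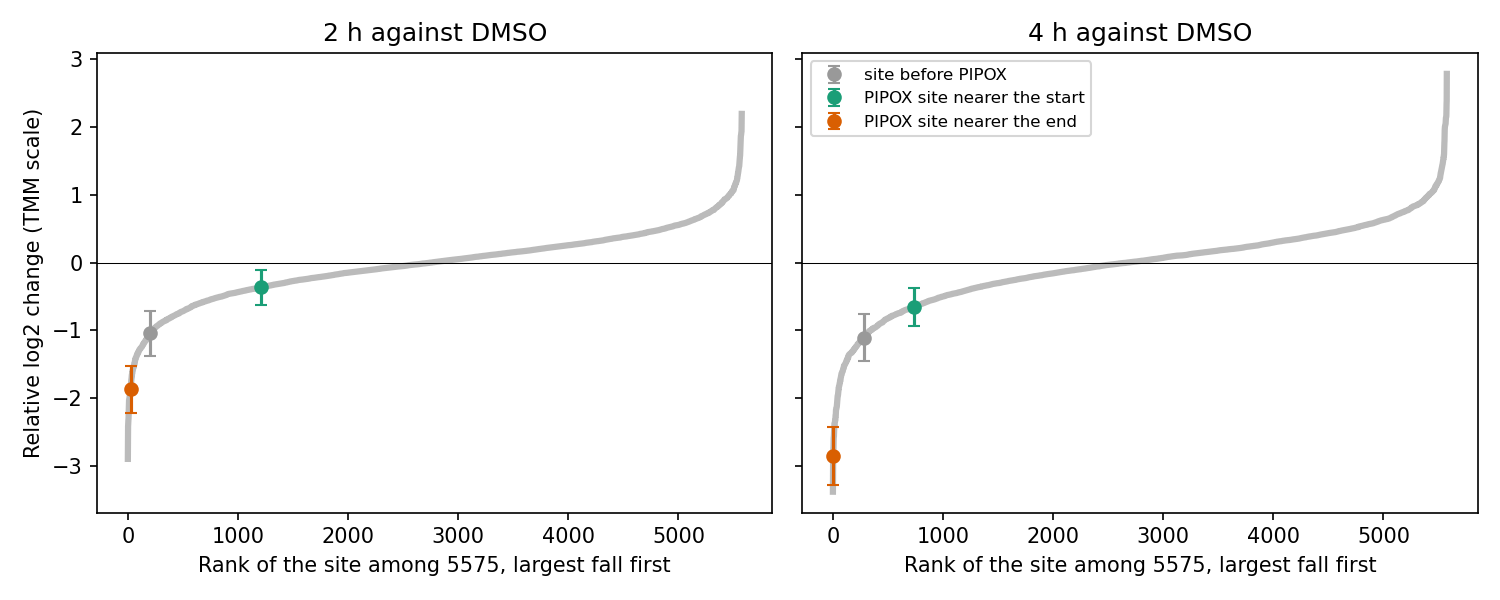
Relative log2 change on the TMM scale (vertical axis) of all 5575 tested sites in order of their fall (horizontal axis, grey line) at 2 h and at 4 h. The 3 sites are points with bars of 1 edgeR standard error. The PIPOX site nearer the end is at −1.87 and −2.85, the site before PIPOX at −1.05 and −1.11, and the site nearer the start at −0.37 and −0.66.

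Close neighbours are uncommon in the table. The median site had its nearest neighbour 68.7 kb away, and 5.66% of sites (327) had one within 5 kb, as the PIPOX sites did. Counting others within 250 kb of a centre, the site nearer the end had 2, the same as the median site. Among the 161 adjacent pairs of tested sites with centres within 5 kb, the relative log2 changes of the 2 partners differed by a median of 0.32 at 2 h and 0.26 at 4 h. In the PIPOX pair they differed by 1.501 at 2 h and 2.20 at 4 h, a 2.83-fold and a 4.59-fold difference in what was left. That was the second largest difference of the 161 pairs at each time. As 1 partner was chosen for its fall, the rank is a description, and the times share their DMSO libraries.

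Between the treatment times neither tested neighbour passed the threshold, and the site nearer the end was not tested. At the site nearer the end the relative log2 difference of 4 h from 2 h was −0.99 (SE 0.636), and leaving out the 2 h library A turned it to 0.45. At the site nearer the start it was −0.29 (SE 0.331, edgeR adjusted p = 0.989), and at the site before the gene −0.06 (SE 0.458, edgeR adjusted p = 0.998). In raw counts these 2 changes were −0.45 (SE 0.767) and −0.22 (SE 0.763). Of these 2 sites edgeR, DESeq2 and limma-voom each called 0, and 0 had an unadjusted edgeR p under 0.05. The same tools called 0% of all 5575 tested sites between 2 h and 4 h on either scale, so the count of 0 says nothing particular about PIPOX. At an unadjusted edgeR p under 0.05, 172 of all sites were lower and 149 higher at 4 h on the relative scale, and 8 were lower and 3 higher in raw counts.

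Other sites shared the pattern of the site nearer the end. Likeness was the distance between log2 profiles of library share over the 6 columns, each centred on its mean, among 5085 sites outside the locus with a mean DMSO count of at least 20. The likest was chr5:99221852-99222252 (distance 1.10, against a median of 3.13), which gave 62 and 105 reads in the controls A and B, 17 (A) and 6 (B) after 2 h, then 6 (A) and 10 (B) after 4 h. The 4 others are given in the same order of libraries. At chr7:135747931-135748331 (1.17) the 6 counts were 23, 59, 16, 3, 3 and 9. At chrX:38402645-38403045 (1.21) they were 24, 31, 7, 2, 1 and 4. At each of the 5 sites every treated count was below both DMSO counts, which the choice by likeness favours. At chr3:130340343-130340743 (1.34) they were 27, 46, 17, 4, 2 and 8. At chr11:19206780-19207180 (1.41) they were 44, 105, 20, 10, 4 and 9. The neighbour in the same gene was at a distance of 2.73 and the site before the gene at 2.60, which would rank them 1027 and 745.

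**Figure D5:**
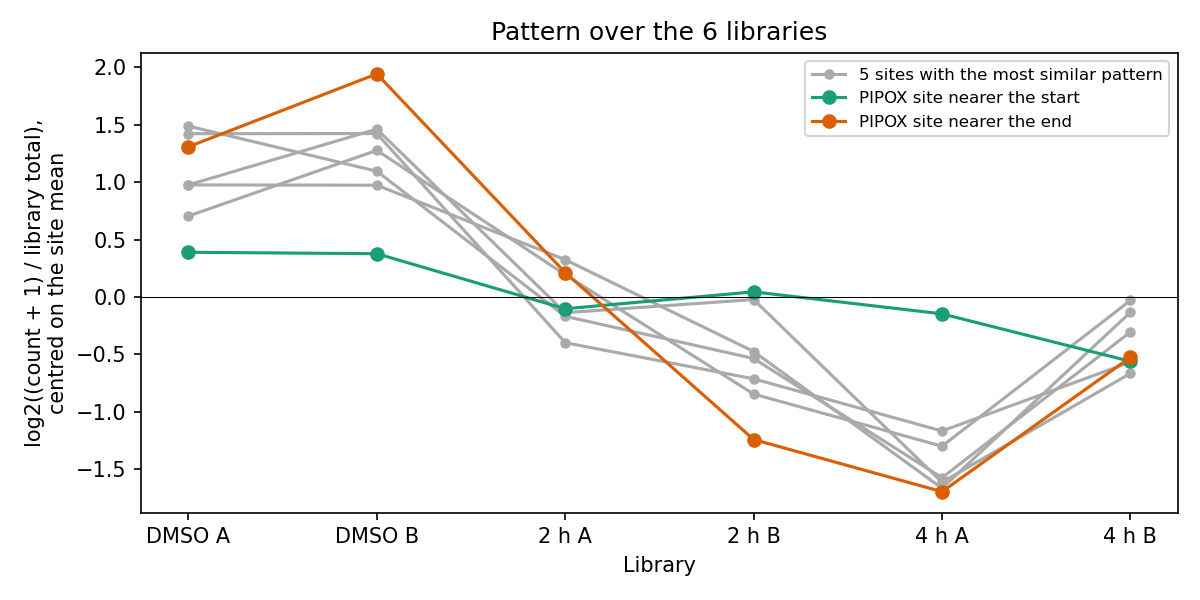
log2 of the count plus 1 over the library total, centred on each site's mean (vertical axis), in the 6 libraries (horizontal axis, lines only join points of 1 site) for the PIPOX site nearer the end, the 5 sites with the most similar pattern and the PIPOX site nearer the start. The site nearer the start stays flatter than the other 6, which are high in DMSO and lowest in the 4 h column A.

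The sites just inside and just outside the window of 250 kb were far apart. The site before PIPOX lay 175.8 kb inside its edge. The next site beyond it, chr17:28197898-28198298, lay 563.9 kb outside the other edge and gave 31 and 74 reads in the controls A and B, 37 (A) and 19 (B) after 2 h, then 26 (A) and 29 (B) after 4 h. Its share was 16.6 ± 4.07 (SD, n = 2) per 100000 with DMSO, 16.7 ± 0.705 (SD, n = 2) at 2 h and 17.8 at 4 h. On the side before the gene the next site was chr17:25773726-25774126, 1346 kb outside, with 28 and 26 reads in the controls, 19 (A) and 8 (B) after 2 h, then 15 (A) and 16 (B) after 4 h. Its share was 9.61 ± 3.92 (SD, n = 2) per 100000 with DMSO, 7.78 ± 0.763 (SD, n = 2) at 2 h and 10.1 at 4 h. That 4 h mean share was 104.6% of the DMSO mean. In mean count, 57.4% of DMSO was left at 4 h here and 52.4% at the site beyond the other edge. A share of the library does not show a loss common to all sites.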

How the data were processed

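The authors deposited 1 table of unscaled read counts at sites of equal length. The submitters' processing notes name hg19, deepTools, DESeq2, DiffBind, Bowtie2, Genrich 0.6.1 and Trimmomatic 0.32. What each did, the choice of sites and the treatment of duplicate reads are not stated, and sites picked for DMSO signal would tend to fall. The library without crosslinking was not analysed here, and 0 further value columns were left aside. Coordinates are as in the file and may be off by 1 base.

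The filterByExpr filter (edgeR 4.0.16, with 10 as minimum count and 15 as minimum total) kept 5575 of 5782 sites, with all 3 at the locus. These were fitted together, in R 4.3.3 by the quasi-likelihood test of edgeR. Treatment was the only term, with 3 residual degrees of freedom. The raw fit gave all libraries 1 size, so its changes and calls also hold differences in library total. The relative fit used TMM factors. P-values were adjusted by Benjamini-Hochberg over all tested sites, with a threshold of 0.05. The standard error is the log2 change over the square root of F. Both fits were tested on simulated data for 4 h against DMSO only, and no result above rests on that test. It is not taken as support for the raw fit on libraries with the totals and spread found here. The biological coefficient of variation estimated by edgeR was 38.7% for raw counts and 11.6% on the TMM scale. Exact intervals (Clopper-Pearson for shares, Poisson for counts) used scipy 1.17.1.

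Named were all sites of the window, the next site beyond each edge and the 5 sites of the most similar pattern. Members, lists and tests were chosen with earlier results of these data known. The planned search of genes of sarcosine and lysine breakdown, and of motifs in the sites, needs hg19 annotation or sequence and was not run. Alternatives were other tests (DESeq2 1.42.0, limma-voom of limma 3.58.1), scalings, filters, prior counts, windows, a replicate block and leaving out libraries.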

Additional observations from a re-analysis of the deposited data

How the results depend on the processing

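The log2 change from DMSO of the PIPOX site nearer the end stayed below 0 at both times under all alternatives, while its change from 2 h to 4 h turned to 0.96 raw and 0.45 relative without 2 h A. Leaving out 1 library, it ranged from −4.92 to −1.94 raw and −3.31 to −1.47 relative at 2 h, and from −4.92 to −3.09 raw and −3.80 to −2.31 relative at 4 h. Scaled on the 20 highest sites its relative change at 4 h was −3.90. Its rank by relative fall was 10 and 14 at 2 h by change in library share with pseudocounts of 0.5 and 5, and 33 among all sites of the table, in place of 25. At 4 h, in place of 3, it was 6 with a pseudocount of 5 and 6 among all sites of the table. Its portion of locus reads was 47.9% and 59.2% in DMSO A and B counting only the 2 sites inside PIPOX, an alternative added after seeing the data, and 32.7% in DMSO B and 17.4% in 2 h A with a window of 1 Mb.

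The number of called neighbours, 1 at 2 h and 1 at 4 h on the relative scale, was 0 at 2 h with DESeq2, RLE size factors, scaling on the 20 highest or on the lowest 10% of sites, and 0 at 4 h with DESeq2, limma-voom and scaling on the lowest 10%. Leaving out 1 library it ranged from 0 to 1 at both times. In raw counts it ranged from 0 to 1 at 2 h and from 0 to 2 at 4 h, and at 4 h it was 2 in a fit of DMSO and 4 h alone and 0 when the 4 h columns counted as 1. Over the alternatives the adjusted p of the site before PIPOX ran from 0.0176 to 0.899 (relative, 2 h), 0.00930 to 0.546 (relative, 4 h) and 0.00291 to 0.793 (raw, 4 h). From 2 h to 4 h, where 0 were called throughout, the relative change of that site reversed to 0.014 with limma-voom, and leaving out 1 library it ranged from −0.54 to 0.26 relative and from −0.58 to 0.066 raw. That of the site nearer the start ranged from −0.84 to 0.099 raw. The cause was not tested. Where 1 library was left in a group, it was assumed to vary like the others.

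With a replicate block for the letters A and B, 0 neighbours were called on either scale at either time, although the relative change of the site before PIPOX was still −1.04 at 2 h and −1.11 at 4 h, and the PIPOX site nearer the end changed by −1.74 at 2 h and −2.81 at 4 h (relative). Libraries of the same letter did not deviate alike over the sites. The correlation of the A to B deviations was −0.204 for DMSO and 2 h, 0.0127 for DMSO and 4 h, and −0.00748 for 2 h and 4 h. The letters are not tied to replicate numbers, and a pairing of unlike letters was not tested. Depth limits all values of the locus, whose 3 sites held 25 reads in 2 h B, the library with the lowest total, and 30 and 26 in the 4 h columns.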
